A study of Mus musculus with 29 samples.

Results

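Mitosis and kinetochore genes are the genes a dividing cell uses to condense its chromosomes, attach them to the spindle, separate them and divide the cell. Of 40 such genes listed by symbol, 38 had a mean of at least 0.3 CPM (read counts scaled to the size of each library) over the 29 libraries of this mouse heart series and are described here, out of 23418 genes in the deposited table of the series and 14054 that reached the same mean level and were tested. Ndc80 lay just inside that limit at 0.38 CPM, and Bub1 (0.17 CPM) and Ncapg (0.15 CPM) lay below it and were left out.

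RNA was taken, by protocol, from ventricular apexes (the tissue label reads whole heart) of C57BL/6J mice, labelled 12 weeks old, and sequenced from its polyadenylated fraction. The 8 groups crossed 4 genotypes with 2 conditions. The genotypes were wild type, ablation of the protein kinase PKCδ in the heart after birth (PKCδ), germline knockout of the related kinase PKCε (PKCε), and both together (combined). No source used here names the promoter or Cre behind the PKCδ ablation. Unstressed hearts gave 4, 3, 3 and 4 libraries in that order of genotypes. Hearts taken 4 weeks after TAC (transverse aortic constriction, in which a band around the aorta raises the pressure the left ventricle works against) gave 4, 3, 4 and 4. The labels name unstressed hearts and no sham operation, so the TAC effect includes that of surgery. Every unstressed library is labelled male. The 6 libraries labelled female are wild-type TAC replicate 4, PKCδ TAC replicates 2 and 3, and combined TAC replicates 1, 2 and 4. Labelled sex thus differs between conditions in every genotype but PKCε.

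In mitosis the kinase Cdk1 with its cyclins starts chromosome condensation, the kinetochore ties each chromosome to spindle microtubules, and a checkpoint delays separation until all are attached. The anaphase-promoting complex then marks cyclins and other proteins for destruction, and the centralspindlin complex guides the final cut. Adult cardiomyocytes seldom divide, while endothelial, stromal and immune cells of the heart can. Many of these genes share promoter elements, the CCAAT box bound by NF-Y and the cell cycle homology region bound by the MuvB core of the DREAM and MYB-MuvB complexes.

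The promoters were examined for those elements. Of the 38 genes, 33 had an entry in the RefSeq promoter table for GRCm38.p6, which gives 250 bases before and 50 after each annotated start site. The cell cycle homology region, searched as TTTGAA or TTCGAA on both strands, was found in 27 of the 33 (81.8%), against 19.2% of all 32851 promoter windows of the same length. CCAAT, searched on both strands and able to share at most 1 end base with those letters, was found in 26 of the 33 (78.8%), against 37.4% of all windows. Both elements stood in 24 of the 33 (72.7%), against 7.52% of all windows, and 18 (54.5%) held at least 2 CCAAT boxes, against 11.7%. Birc5, Ncaph, Nuf2 and Nusap1 had neither in this window. The 5 stretches below show the start sites of the 3 genes that fell after TAC in every genotype (Cenpf, Racgap1, Hmmr), of the gene with the largest rise in unstressed combined hearts (Ube2c) and of another gene that rose there (Cdc20). Capitals mark the matches, read 5′ to 3′ on the gene's strand, where a CCAAT box on the other strand reads ATTGG and a homology region reads TTCAAA.
Cenpf: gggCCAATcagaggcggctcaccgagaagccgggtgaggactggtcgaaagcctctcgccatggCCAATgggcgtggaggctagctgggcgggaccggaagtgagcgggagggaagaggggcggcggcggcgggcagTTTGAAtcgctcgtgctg
Racgap1: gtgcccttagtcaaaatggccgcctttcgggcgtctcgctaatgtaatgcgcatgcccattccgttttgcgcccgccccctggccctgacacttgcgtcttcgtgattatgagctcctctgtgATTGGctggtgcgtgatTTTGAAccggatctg
Hmmr: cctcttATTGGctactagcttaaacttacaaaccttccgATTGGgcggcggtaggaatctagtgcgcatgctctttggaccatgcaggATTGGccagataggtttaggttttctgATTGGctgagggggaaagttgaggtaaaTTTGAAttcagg
Ube2c: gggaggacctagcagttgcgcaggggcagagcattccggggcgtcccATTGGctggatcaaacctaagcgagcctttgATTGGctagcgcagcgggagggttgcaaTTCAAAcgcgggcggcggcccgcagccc
Cdc20: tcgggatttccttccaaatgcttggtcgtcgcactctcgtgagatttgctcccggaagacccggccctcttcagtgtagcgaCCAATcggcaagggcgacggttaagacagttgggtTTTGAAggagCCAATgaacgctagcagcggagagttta
These are chr1:189688067-189688221 (minus strand), chr15:99651637-99651791 (minus), chr11:40733418-40733572 (minus), chr2:164769794-164769927 (plus) and chr4:118437324-118437478 (minus) in GRCm38.p6. Each runs from upstream of the start site to 20 bases after it, except that of Ube2c, which ends just before it. In Cenpf, Racgap1 and Hmmr the homology region begins 3, 6 and 9 bases after the start site, downstream of 1 CCAAT box in Racgap1, 2 in Cenpf and 5 in Hmmr, of which 4 lie in the printed stretch. Ube2c holds 6 CCAAT boxes in its full window. These matches describe letters and not bound sites, and the expression data do not test them.

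**Figure D1:**
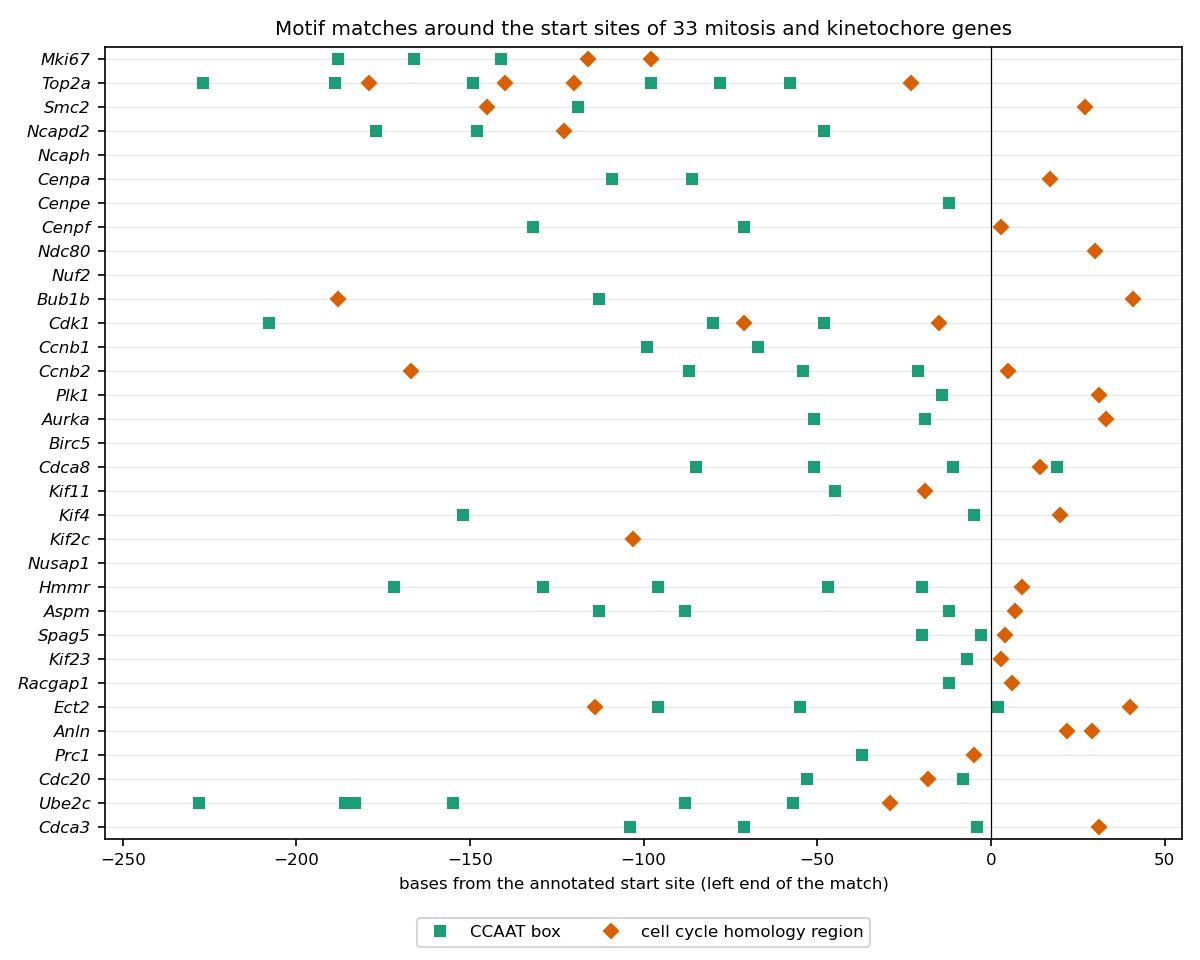
Positions of CCAAT boxes (squares) and cell cycle homology regions (diamonds) for 33 mitosis and kinetochore genes (rows, by role), in bases from the annotated start site (horizontal axis). Matches of both kinds are shown for 24 genes, and 4 genes have none.

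Before the results, the libraries were set against their labels. Gene counts were 10523709 to 17314739 per library, so 1 CPM stood for 10 to 18.1 reads. Prkce, which encodes PKCε, was at 46.9 to 52.8 CPM in unstressed wild-type libraries and 7.62 to 9.18 in unstressed PKCε libraries. The library labelled combined TAC replicate 2 held 31.5 CPM of Prkce, against 8.21 to 11 in the other 3 of its group, and so went against its label. Wild-type TAC replicate 2 held 24.0 CPM, against 33.3 to 42.9 in the other 3. Myh2, a fast skeletal muscle myosin, was at 10.2 CPM in that wild-type library and 0.07 to 0.28 in the other 3 of its group, and at 0.15 CPM in combined TAC replicate 2 and 6.28 to 7.65 in the other 3 of its group. Both genes thus set each library apart from its group in the direction of the other's group. However, Myh2 did not mark the combined label in both conditions. Against wild type it was not called in unstressed combined hearts (log2 fold change -0.85 ± 2.98, SE, adjusted p = 0.86 in edgeR's quasi-likelihood test). It was higher in unstressed PKCε hearts (6.9 ± 1.25, adjusted p = 0.0037, same test). Whether the labels of the 2 libraries were exchanged was not tested. Counts of called genes without both libraries are given beside those that they change. Prkcd, which encodes PKCδ, did not pass the test in unstressed PKCδ hearts (17.5 ± 1.19 CPM against 15.1 ± 1.19 in wild type, SD, n = 3 and 4, adjusted p = 0.40 in edgeR's quasi-likelihood test), and it did not pass in unstressed combined hearts either (-0.11 ± 0.12, adjusted p = 0.56). Prkcd therefore gives no check of the PKCδ label, and no source used here names the part of the gene deleted. Of 23 libraries labelled male, 12 held at least 10 CPM of Xist and less than 10 of 4 Y-linked genes together, and 10 of all 29 libraries held at least 10 CPM of both. The labels do not say whether hearts were pooled. Unstressed combined replicates 2 and 4 were closer to each other than any other pair (chi-square per degree of freedom 1.58, against 10.3 to 15.9 for the other pairs of that group). Next came unstressed wild-type replicates 1 and 4 (2.29), PKCδ TAC replicates 1 and 2 (2.54) and unstressed PKCε replicates 1 and 2 (2.63). No fit summed those pairs.

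Cardiomyocyte markers were high in every group (Myh6, Tnnt2 and 8 others summed to between 96400 and 121000 CPM in the wild-type and combined libraries), and the mitosis genes were a small fraction. The 38 genes summed to 152 ± 14.2 CPM in unstressed wild-type libraries (SD, n = 4), of which Ncapd2 gave 35.7 to 46.0. Per kilobase of exon, Ncapd2 (6.38 CPM per kilobase, wild-type unstressed mean) also stood highest, followed by Cenpa (1.99), Racgap1 (1.54), Cenpf (1.35) and Hmmr (1.31). Ndc80 (0.07), Nuf2 (0.08) and Ect2 (0.09) stood lowest. Mki67, whose protein coats mitotic chromosomes and is the usual proliferation marker, was at 0.94 CPM per kilobase. On this scale Ncapd2 exceeded Smc2 (0.44) and Ncaph (0.34), its partners in condensin, per kilobase. In bulk tissue, fewer cells of a type and less RNA per cell cannot be told apart.

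**Figure D2:**
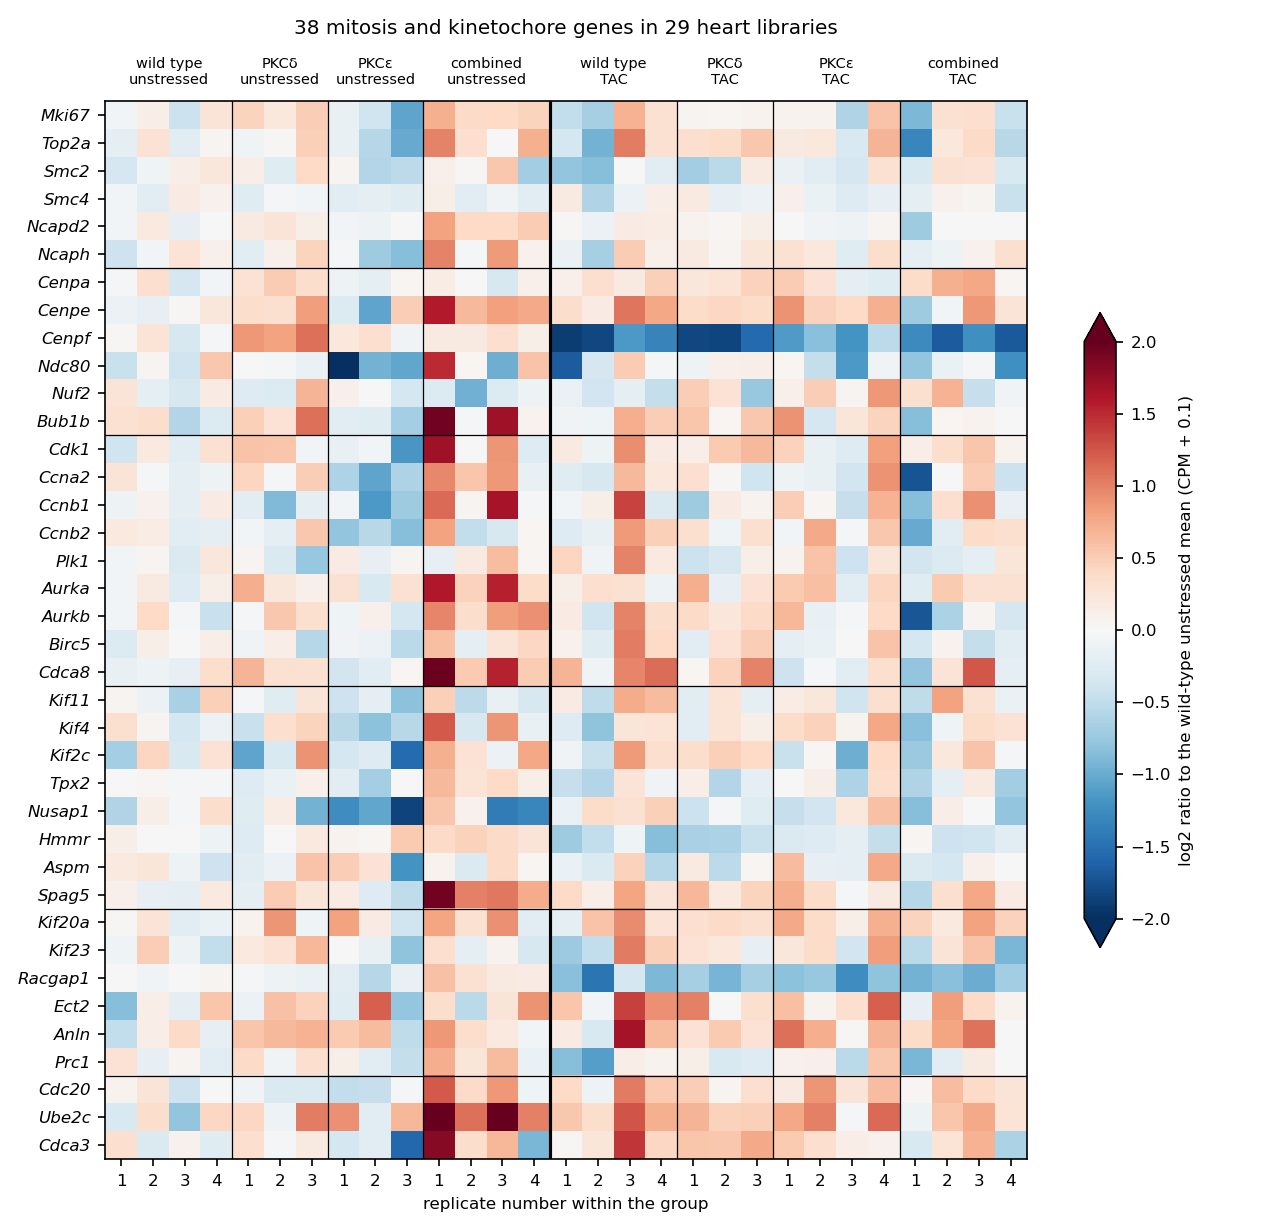
Each cell is the log2 ratio of a gene (rows, by role) in a library (columns, by group, with replicate numbers) to the mean of unstressed wild type, with 0.1 CPM added, and colours end at ratios of 2 and -2. Cenpf is blue in every TAC library, and unstressed combined replicate 1 is the reddest unstressed column.

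The question of the series for these genes was whether pressure overload changed them and whether loss of either kinase altered their level or that response. In wild-type hearts TAC lowered 3 of the 38 genes and raised none, where 17.4% of all genes tested were called lower and 17.5% higher (edgeR's quasi-likelihood test, Benjamini-Hochberg adjusted p below 0.05). The 3 were Cenpf, Racgap1 and Hmmr, and the median log2 fold change of the 38 genes was 0.27, against -0.00 for all genes tested. Without the 2 libraries named above, 5 genes were called, with Anln (1.05, adjusted p = 0.02) and Cdc20 (0.70, adjusted p = 0.034) added as higher.

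Every TAC effect here also lies between libraries that differ in quality measures. Rn45s, the ribosomal RNA precursor, took 4.51% to 8.59% of gene counts after TAC, against 9.90% to 14.1% without it. Reads placed at more than 1 site were 10.97% to 14.2% after TAC, against 8.01% to 9.57% without it. Neither range overlapped between conditions, and the part of these measures in the TAC effects was not tested.

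Cenpf encodes a large kinetochore protein that also binds microtubules, and lies on chromosome 1 (189640606 to 189688086, minus strand, GRCm38). In wild-type hearts it was at 21.3, 25.4, 16.7 and 20.3 CPM unstressed and at 5.57, 5.86, 9.39 and 8.21 CPM after TAC. Every TAC library lay below every unstressed one, a 2.89-fold fall (log2 fold change -1.53 ± 0.16, SE, adjusted p = 6.1e-08). In PKCδ hearts it was at 38.2, 36.7 and 45.1 CPM unstressed and 5.84, 5.80 and 7.03 CPM after TAC, a 6.43-fold fall (-2.69 ± 0.19, adjusted p = 5.1e-11). In PKCε hearts it was at 24.2, 26.3 and 19.9 CPM unstressed and 9.46, 11.7, 9.11 and 14.5 CPM after TAC (-1.07 ± 0.16, adjusted p = 2.3e-05). In combined hearts it was at 23.8, 23.8, 26.4 and 22.6 CPM unstressed and 8.61, 6.54, 8.86 and 6.45 CPM after TAC (-1.66 ± 0.16, adjusted p = 3.4e-09). The 2 conditions did not overlap in any genotype, and the 4 calls held in all alternatives that were run.

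Racgap1 encodes the GTPase-activating subunit of centralspindlin, which acts at the cleavage furrow (chromosome 15, 99620496 to 99651656, minus strand). It was at 11, 10.4, 10.9 and 11.3 CPM in unstressed wild-type hearts and at 6.04, 3.89, 8.55 and 5.78 CPM after TAC. The groups did not overlap, and the fall was 1.80-fold (-0.85 ± 0.15, adjusted p = 9.7e-05). It fell also in PKCδ (-0.66 ± 0.18, adjusted p = 0.0066), PKCε (-0.60 ± 0.17, adjusted p = 0.0094) and combined hearts (-1.20 ± 0.15, adjusted p = 3e-07), with no overlap. Its partner in centralspindlin, the kinesin Kif23, did not pass the test in any genotype (0.27, -0.29, 0.64 and -0.04 in the same order from wild type to combined). Hmmr encodes a hyaluronan receptor that also works at the spindle poles (chromosome 11, 40701395 to 40733422, minus strand). It was at 7.71, 7.05, 7.02 and 6.61 CPM in unstressed wild-type hearts and 4.29, 5.04, 6.67 and 3.90 CPM after TAC, where replicate 3 overlapped the unstressed range. Its falls were -0.51 ± 0.15, -0.58 ± 0.17, -0.53 ± 0.16 and -0.61 ± 0.14 from wild type to combined (adjusted p = 0.0081, 0.012, 0.011 and 0.00088). Leaving out PKCε unstressed replicate 3 ended the PKCε calls of Racgap1 (adjusted p = 0.059) and Hmmr (adjusted p = 0.14), and leaving out PKCδ unstressed replicate 3 ended the PKCδ call of Hmmr (adjusted p = 0.097). That call was also lost with Y-linked transcripts as a term (adjusted p = 0.053), and the 3 unstressed PKCδ libraries held 0 to 0.08 CPM of Y-linked transcripts against 24.7 to 35.7 in the 3 TAC ones.

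The 4 TAC effects share no library. Of all genes tested, 4.13% were called lower in all 4 genotypes, as Cenpf, Racgap1 and Hmmr were among the 38, and 4.48% were called higher in all 4, as none of the 38 was. Cenpf differed between genotypes in its fall: its TAC effect in PKCδ hearts was 1.15 lower on the log2 scale than in wild type (interaction -1.15 ± 0.24, adjusted p = 0.012), the only gene of the 38 called in that interaction, where 1.25% of all genes were called. That interaction was not called without PKCδ TAC replicate 1 (adjusted p = 0.056). Its level after TAC in PKCδ hearts (6.22 ± 0.70 CPM, SD, n = 3) lay beside that of wild type (7.26 ± 1.85, n = 4), and its unstressed level lay above. The same unstressed PKCδ libraries enter the fall of Cenpf, its interaction and its unstressed difference from wild type given below, so these are not independent.

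**Figure D3:**
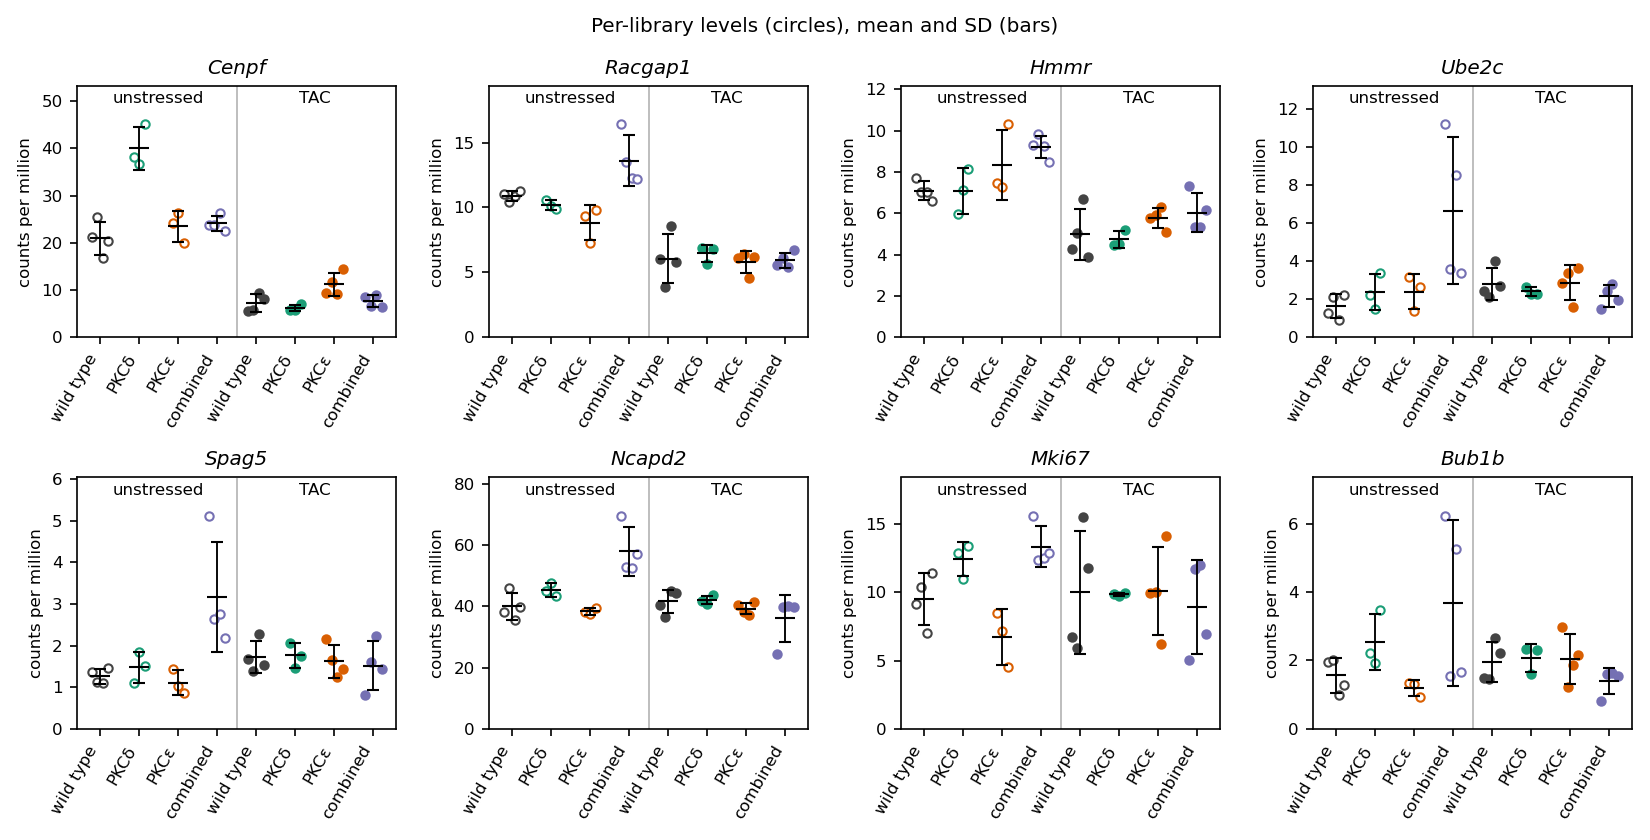
CPM (vertical axes) of 8 genes in each library, open circles for unstressed and filled for TAC, coloured by genotype, with the group mean and SD. Cenpf, Racgap1 and Hmmr are lower after TAC in all 4 genotypes, and Ube2c, Spag5, Ncapd2 and Bub1b are highest in unstressed combined hearts.

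The uncalled genes of highest level in wild type were Ncapd2, Cenpa, Mki67 and Smc4. Ncapd2 was at 38.3, 46.0, 35.7 and 39.9 CPM unstressed and 40.5, 36.7, 44.9 and 44.5 CPM after TAC. Mki67 was at 9.15, 10.4, 7.02 and 11.4 CPM unstressed and spread more widely after TAC, at 6.71, 5.93, 15.5 and 11.8 CPM. Cenpa, the histone H3 variant that marks the centromere, was at 9.23 to 14.8 CPM and 12.6 to 16.3 CPM, and Smc4, a condensin ATPase, at 4.80 to 6.32 and 3.70 to 6.37 CPM. The ranges of all 4 genes overlapped between conditions. Wild-type TAC replicate 3 was the highest of its group for 31 of the 38 genes and replicate 2 the lowest for 25, so the spread after TAC was largely shared between the genes. In the same comparison 10 of 13 macrophage and monocyte markers and 7 of 12 fibroblast markers were called higher, with none lower, and the fibroblast markers summed to 986 to 1080 CPM unstressed and 1910 to 3900 CPM after TAC. Their part in the mitosis genes was not tested.

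In PKCδ hearts TAC lowered the same 3 genes and raised none, where 13.5% of all genes were called lower and 12.7% higher, with a median of -0.02 over the 38. The largest positive value was that of Cdc20, an activator of the anaphase-promoting complex (0.54 ± 0.31, adjusted p = 0.21). The 3 PKCδ TAC libraries were close to each other, with Mki67 at 9.86, 9.74 and 9.93 CPM. In this comparison 5 of 12 fibroblast markers were called higher and 1 lower, 6 of 15 endothelial markers higher and 1 lower, and 3 of 13 macrophage and monocyte markers higher and none lower. The fibroblast markers summed to 1060 to 1210 CPM unstressed and 1690 to 2170 CPM after TAC, and their part in the mitosis genes was not tested.

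In PKCε hearts TAC lowered these 3 genes and raised 4, where 14% of all genes were called lower and 14.2% higher, and 35 of the 38 had a positive value (median 0.49). The 4 were Nusap1 and Kif4, which bundle and organise spindle microtubules, Ccnb2, a B-type cyclin partner of Cdk1, and Cdc20. Nusap1 was at 0.29, 0.35 and 0.15 CPM unstressed and 0.57, 0.61, 0.97 and 1.28 CPM after TAC (1.65 ± 0.54, adjusted p = 0.022), from 2 to 4 reads and 9 to 16 reads per library. Kif4 was at 0.86, 0.69 and 0.85 CPM unstressed and 1.71, 1.83, 1.38 and 2.31 CPM after TAC (1.15 ± 0.39, adjusted p = 0.028). Ccnb2 was at 0.57, 0.69 and 0.54 CPM unstressed and 1.02, 1.88, 1.03 and 1.59 CPM after TAC (1.19 ± 0.41, adjusted p = 0.029). For these 3 genes every TAC library lay above every unstressed one, as it did for Cdc20 (0.85 ± 0.29, adjusted p = 0.03). Each of the 4 calls was lost when certain single libraries were left out, and 3 to 7 genes were called over those fits, with 3 without PKCε unstressed replicate 1, PKCε unstressed replicate 3 or PKCε TAC replicate 4. None of the 38 genes was called in the interaction of PKCε with TAC, where 0.0356% of all genes were called, 1 had an unadjusted p below 0.05 and DESeq2 also called 0. Foxm1, the forkhead factor that activates many mitotic genes, was at 2.20, 1.65 and 1.48 CPM in unstressed PKCε hearts and 4.32, 3.65, 2.14 and 4.07 CPM after TAC (1.01 ± 0.27, adjusted p = 0.0057), where replicate 3 overlapped the unstressed range. Exons of Kif4 overlap those of Pdzd11 on the opposite strand over 15.1% of their length, and those of Nusap1 overlap Oip5 over 4.24%, so in these unstranded libraries their counts carry that uncertainty. In this comparison 7 of 12 fibroblast markers and 3 of 13 macrophage and monocyte markers were called higher and none lower. The fibroblast markers summed to 1090 to 1170 CPM unstressed and 1900 to 3180 CPM after TAC, the macrophage and monocyte markers to 322 to 370 and 417 to 447 CPM, and their part was not tested.

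**Figure D4:**
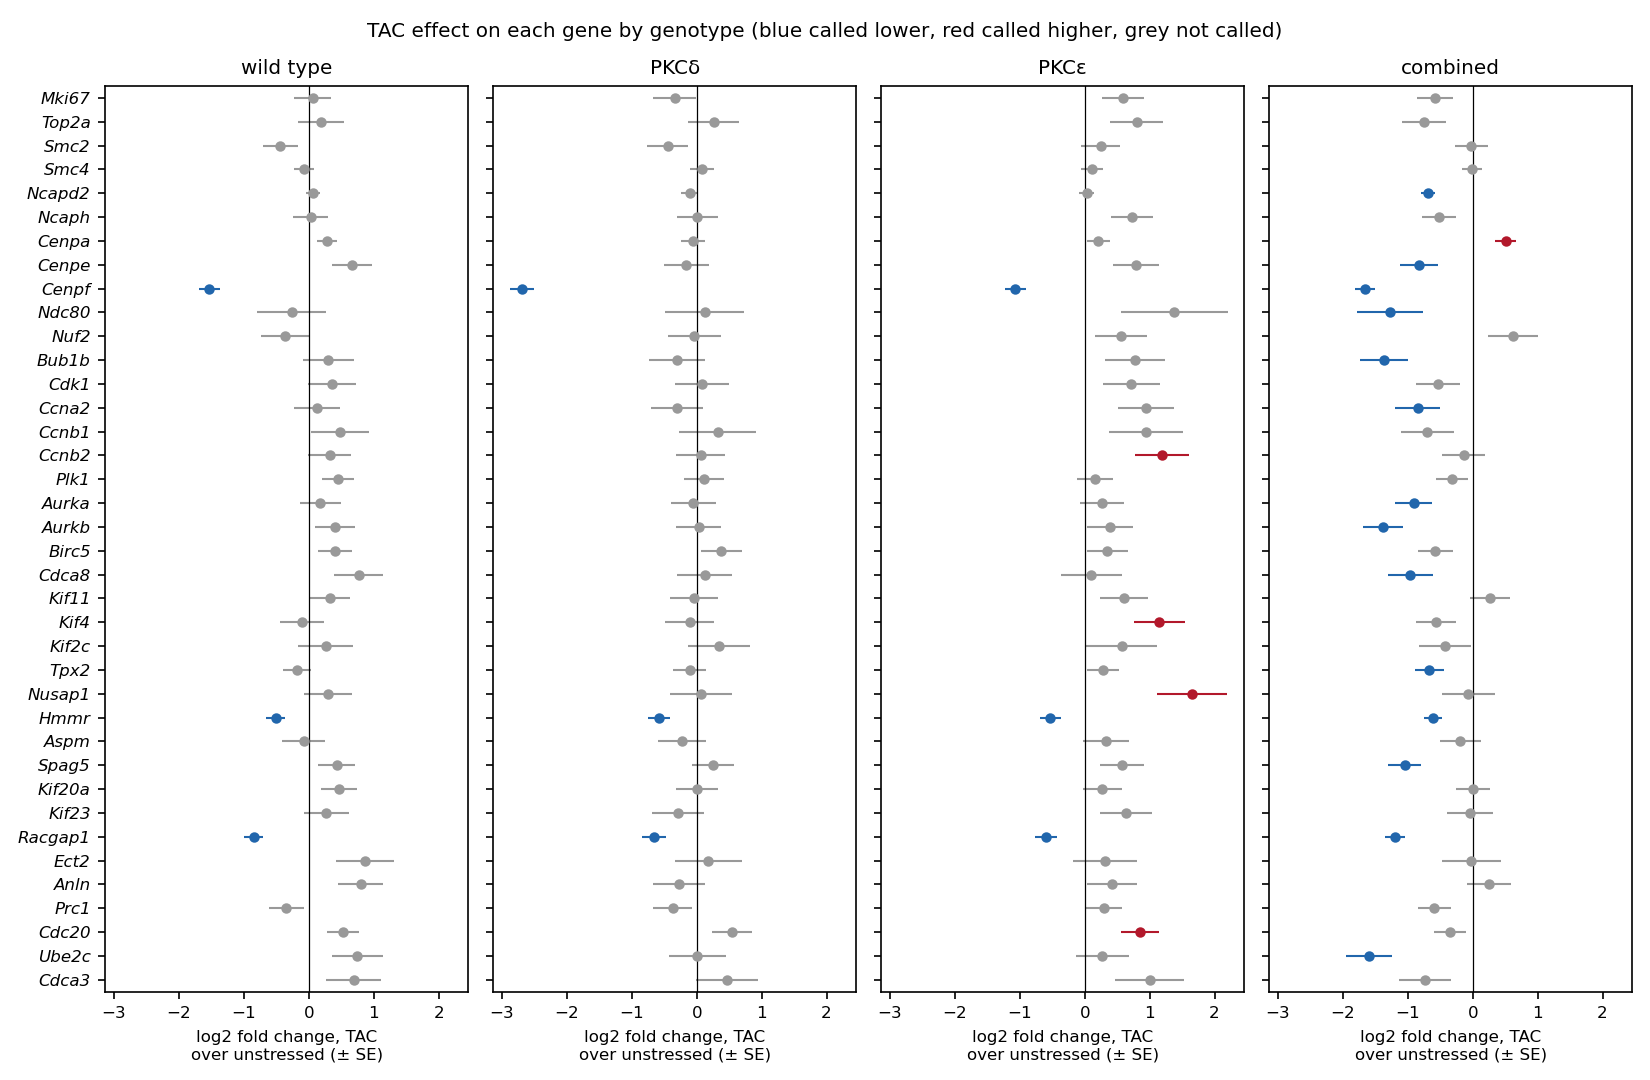
Log2 fold change of TAC over unstressed (horizontal axes, points with SE) for each of the 38 genes (rows, by role) in 4 genotypes, blue where called lower, red where called higher and grey where not called. Cenpf, Racgap1 and Hmmr are blue in all 4 panels, and 11 further genes are blue in combined hearts.

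In unstressed hearts of the single ablations 1 gene was called against wild type, in PKCδ hearts. In unstressed PKCδ hearts Cenpf was the only gene of the 38 called, where 5.19% of all genes were called in either direction. Its 36.7 to 45.1 CPM lay above the 16.7 to 25.4 CPM of wild type, a 1.91-fold difference (0.93 ± 0.15, adjusted p = 0.00051) that held in all alternatives run. In PKCε hearts none of the 38 was called, where 2.88% of all genes were, 2 had an unadjusted p below 0.05 and DESeq2 called 0. Their median was -0.26, and 29 of the 38 had a negative value, with Nusap1 at -1.63 ± 0.55 (adjusted p = 0.11). Foxm1 was lower there (-1.0 ± 0.27, adjusted p = 0.04), at 1.48 to 2.20 CPM against 3.22 to 3.96 CPM in wild type. The same unstressed PKCε libraries enter the TAC effect in PKCε hearts, so these values and the rises after TAC are not independent. Foxm1 was not called in the interaction of PKCε with TAC (0.91 ± 0.35, adjusted p = 0.47). Nor was it called in PKCε hearts against wild type after TAC (-0.09 ± 0.21, adjusted p = 0.93).

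Unstressed hearts labelled combined held more transcript of 10 of the 38 genes than wild type and less of none. Of all genes tested, 15% were called higher and 13.6% lower, and the 10 are 26.3% of the 38. The 10 were Ube2c, Ncapd2, Spag5, Aurka, Cdca8, Cenpe, Bub1b, Aurkb, Cdc20 and Hmmr, and the median over the 38 was 0.49. They came from 5 of 6 roles: 2 of 3 genes of the anaphase-promoting complex and mitotic exit, 3 of 9 kinases, cyclins and passenger proteins, 2 of 6 kinetochore and checkpoint genes, 2 of 8 spindle genes and 1 of 6 chromosome structure genes. None of 6 cytokinesis genes was called, with Racgap1 at 0.32 ± 0.15 (adjusted p = 0.10).

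Ube2c encodes the ubiquitin-conjugating enzyme that works with the anaphase-promoting complex (chromosome 2, 164769898 to 164778822, plus strand). It was at 1.30, 2.10, 0.90 and 2.20 CPM in wild type and 11.2, 3.59, 8.51 and 3.36 CPM in combined hearts. All combined libraries lay above all wild-type ones, a 3.98-fold difference (1.99 ± 0.37, adjusted p = 0.00025). Exons of Ube2c overlap those of Tnnc2, the fast skeletal troponin C on the opposite strand, over 22.8% of their length. Tnnc2 was at 0.07 to 0.25 CPM in the combined libraries. However, 74.0% of its own exon length lies on Ube2c, where reads on more than 1 gene are left out. Its low count therefore cannot show how much Tnnc2 RNA was present, and its part in the Ube2c values was not tested. Cdc20 was at 2.16, 2.47, 1.51 and 2.07 CPM in wild type and 4.92, 2.71, 3.84 and 1.92 CPM in combined hearts, with overlap (0.68 ± 0.25, adjusted p = 0.043).

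Spag5, which holds spindle poles together and helps attach kinetochores, was at 1.37, 1.12, 1.1 and 1.47 CPM in wild type and 5.12, 2.64, 2.75 and 2.19 CPM in combined hearts. The groups did not overlap (1.31 ± 0.28, adjusted p = 0.00073). Ncapd2, the condensin subunit, was at 69.6, 53.0, 52.5 and 57.0 CPM in combined hearts, all above the 35.7 to 46.0 CPM of wild type, and was the call resting on most reads (0.54 ± 0.11, adjusted p = 0.00063). Hmmr was at 9.28, 9.81, 9.26 and 8.5 CPM, above the 6.61 to 7.71 CPM of wild type (0.38 ± 0.14, adjusted p = 0.046).

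Of the mitotic kinases, Aurka, which builds the spindle poles, was at 0.94, 1.12, 0.80 and 1.07 CPM in wild type and 3.19, 1.39, 3.09 and 1.30 CPM in combined hearts (1.16 ± 0.29, adjusted p = 0.0037). Aurkb, the kinase of the chromosomal passenger complex, was at 1.08, 1.5, 1.1 and 0.80 CPM and 2.29, 1.46, 2.08 and 2.19 CPM (0.84 ± 0.30, adjusted p = 0.034). Cdca8, which encodes borealin of the same complex, was at 1.01, 1.05, 1.0 and 1.47 CPM and 4.71, 1.68, 3.5 and 1.65 CPM (1.32 ± 0.37, adjusted p = 0.0081). Aurka and Cdca8 did not overlap between the groups, and Aurkb did. The third gene of that complex measured, Birc5 (survivin), was at 1.51 ± 0.20 and 1.89 ± 0.44 CPM (SD, n = 4 each) and was not called. Of the kinetochore genes, the motor Cenpe was at 1.08, 1.05, 1.20 and 1.40 CPM and 3.74, 1.90, 2.17 and 2.06 CPM, with no overlap (1.06 ± 0.31, adjusted p = 0.0099). The checkpoint kinase gene Bub1b was at 1.95, 2.02, 1.0 and 1.27 CPM and 6.23, 1.54, 5.25 and 1.65 CPM, with overlap (1.20 ± 0.37, adjusted p = 0.017).

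Replicates 1 and 3 of the combined hearts carried most of the rise of Ube2c, Aurka, Cdca8 and Bub1b, and replicate 1 was the highest of the 4 for 28 of the 38 genes. Without replicate 1, 4 genes were called higher: Ube2c (1.60, adjusted p = 0.0021), Ncapd2 (0.43, adjusted p = 0.0068), Spag5 (0.97, adjusted p = 0.01) and Aurka (0.92, adjusted p = 0.032). Those 4 genes kept their call in all 18 alternatives, while Hmmr lost it in 10, Cdc20 in 7, Aurkb in 6 and Bub1b in 5, most of these being fits that left out 1 library. Replicates 1 and 3 held 44.1 and 27.1 CPM of Y-linked transcripts, and replicates 2 and 4 held 1.83 and 0.75 with 130 and 128 CPM of Xist. With the Y-linked level as a term in the model 10 genes were called, and with replicates 2 and 4 summed as 1 library 10 were called. Unstressed wild-type replicates 1 and 4 held 51.6 and 59.6 CPM of Y-linked transcripts, and Ube2c was at 1.30 and 2.20 CPM in them and at 2.10 and 0.90 CPM in replicates 2 and 3. Ube2c is only 1 of the called genes. The Y-linked term adjusted the comparison of genotypes, and the part of sex itself in the rise of these genes was not tested. Over the same comparison 9 of 15 endothelial markers were called lower and none higher, 4 of 13 macrophage and monocyte markers higher and 1 lower, and 3 of 7 lymphocyte markers higher. Endothelial markers summed to 1990 to 2030 CPM in wild type and 1620 to 1770 CPM in combined hearts, and macrophage and monocyte markers to 379 to 425 and 465 to 483 CPM. The part of these cell types in the mitosis genes was not tested.

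After TAC, 14 of the 38 genes were lower in combined hearts than in unstressed combined hearts and 1 was higher, where 21.3% of all genes were called lower and 21.6% higher. The median over the 38 was -0.58. This comparison shares the 4 unstressed combined libraries with the one above, so the values of the 2 comparisons are not independent. Beside Cenpf, Racgap1 and Hmmr, 8 of the 10 genes above were called lower (all but Cdc20 and Hmmr, which is among the first 3), as were Tpx2, Ccna2 and Ndc80. Ube2c was at 1.5, 2.43, 2.82 and 1.98 CPM after TAC, below all 4 unstressed libraries (-1.60 ± 0.35, adjusted p = 0.00058). Ncapd2 was at 24.3, 39.9, 40.2 and 39.8 CPM (-0.69 ± 0.11, adjusted p = 1.2e-05), and Aurkb at 0.27, 0.69, 1.17 and 0.87 CPM (-1.38 ± 0.31, adjusted p = 0.0006), both again without overlap. Spag5 was at 0.82, 1.60, 2.23 and 1.43 CPM, where replicate 3 lay above the lowest unstressed library (-1.05 ± 0.26, adjusted p = 0.0018), and Bub1b at 0.82, 1.60, 1.64 and 1.55 CPM, with overlap (-1.37 ± 0.37, adjusted p = 0.0039). Cenpa was the gene called higher, at 15.1, 19.2, 20.1 and 12.0 CPM against 12.9, 11.8, 9.34 and 12.5 CPM, with overlap (0.51 ± 0.16, adjusted p = 0.011). Tpx2, which activates Aurora A at the spindle, was at 5.82, 4.47, 4.84 and 3.98 CPM unstressed and 2.39, 3.19, 4.16 and 2.23 CPM after TAC, with overlap (-0.67 ± 0.22, adjusted p = 0.013). Ndc80, which binds microtubules at the outer kinetochore, rested on 2 to 20 reads per library (-1.27 ± 0.51, adjusted p = 0.044) and kept its call in 8 of 17 alternatives.

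Replicate 1 was the lowest combined TAC library for 23 of the 38 genes. The count of called genes fell to 9 without unstressed combined replicate 1, to 9 when the model held only the 2 groups compared and to 8 with the sex label as a term, and it was 17 without the 2 libraries that stood against or apart from their label. Without those 2 libraries Mki67, Top2a and Birc5 were added as lower and Cenpe was not called (adjusted p = 0.051). Of the markers, 12 of 12 fibroblast genes were called higher. Endothelial markers were called higher for 7 of 15 and lower for 1, pericyte and smooth muscle markers higher for 6 of 9 and lower for 2, and macrophage and monocyte markers higher for 1 of 13 and lower for 3. However, the pericyte and smooth muscle markers summed to 1160 to 1270 CPM unstressed and 931 to 1180 CPM after TAC. That sum fell without overlap in wild-type (1280 to 1350 and 1060 to 1240 CPM), PKCδ (1350 to 1430 and 1070 to 1250) and PKCε hearts (1360 to 1450 and 988 to 1100). The part of these cell types in the mitosis genes was not tested.

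After TAC none of the 38 genes was called in PKCδ (0% of all genes called), PKCε (0.0427%) or combined hearts (6.4%) against wild type, where 1, 3 and 3 of them had an unadjusted p below 0.05, and DESeq2 called 0, 1 and 0, the 1 being Cenpf in PKCε hearts (0.62, adjusted p = 0.048). Aurkb came closest in combined hearts (-0.94 ± 0.32, adjusted p = 0.069), and was called without wild-type TAC replicate 2 (-1.14, adjusted p = 0.046) or combined TAC replicate 3 (-1.26, adjusted p = 0.024). Without the 2 libraries in doubt, 1 gene was called lower in combined hearts, Birc5 (-0.96, adjusted p = 0.046). The summed level of the 38 genes after TAC was 145 ± 32.4 CPM in wild type (SD, n = 4). It was 143 ± 6.67 in PKCδ (n = 3), 147 ± 20 in PKCε (n = 4) and 134 ± 25.0 in combined hearts (n = 4). Unstressed sums were 152 ± 14.2 in wild type (n = 4) and 189 ± 9.43 in PKCδ (n = 3). They were 141 ± 7.72 in PKCε (n = 3) and 209 ± 35.1 in combined hearts (n = 4). By this sum, which genes of high level weigh most on, every unstressed PKCδ and combined library lay above every unstressed wild-type one. The geometric mean, with 0.1 CPM added, gives each gene equal weight. In wild type it was 2.08 ± 0.18 unstressed and 2.3 ± 0.688 after TAC, so its direction differed from that of the sum. By the geometric mean, unstressed PKCδ libraries (2.23 to 2.56) overlapped unstressed wild-type ones (1.87 to 2.26). Unstressed combined libraries (2.29 to 3.9) did not.

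The test of the difference in TAC effect between combined and wild-type hearts called 7 of the 38 genes lower and none higher, where 12.2% of all genes were called lower and 12.3% higher. They were Ncapd2 (-0.74 ± 0.16, adjusted p = 0.0012), Ube2c (-2.35 ± 0.53, adjusted p = 0.0021), Aurkb (-1.78 ± 0.44, adjusted p = 0.0038), Spag5 (-1.48 ± 0.39, adjusted p = 0.007), Cenpe (-1.49 ± 0.43, adjusted p = 0.011), Cdca8 (-1.74 ± 0.52, adjusted p = 0.015) and Bub1b (-1.67 ± 0.54, adjusted p = 0.024). In wild type the TAC values of these 7 genes were 0.06, 0.75, 0.40, 0.43, 0.67, 0.77 and 0.30 in the same order, none of them called. Without the 2 libraries in doubt 10 genes were called lower, with Birc5 (-1.28, adjusted p = 0.018), Cdc20 (-1.16, adjusted p = 0.023) and Top2a (-1.35, adjusted p = 0.046) added. The interaction uses the unstressed combined libraries too. The calls of Ncapd2, Ube2c, Aurkb, Spag5 and Cenpe held in all 26 alternatives, while Cdca8 lost its call in 2 and Bub1b in 6, both among them without unstressed combined replicate 1 (adjusted p = 0.051 and 0.08).

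Of the 38 genes, 19 were called in no comparison, where 28.5% of all genes tested were called in none. Under an alternative 8 of the 19 were called in at least 1 comparison, namely Anln, Birc5, Cdca3, Cdk1, Mki67, Ncaph, Prc1 and Top2a. The 19 were Mki67, the topoisomerase Top2a that untangles sister chromosomes, the condensin genes Smc2, Smc4 and Ncaph, the kinetochore gene Nuf2, the mitotic kinases Cdk1 and Plk1, the cyclin gene Ccnb1, Cdca3, Birc5, the spindle genes Kif11, Kif2c and Aspm, and the cytokinesis genes Anln, Ect2, Prc1, Kif20a and Kif23. Their unstressed wild-type means ran from 0.47 CPM (Ect2) to 9.5 CPM (Mki67). Their log2 differences between unstressed combined and wild-type hearts ran from -0.47 (Nuf2) to 0.93 (Ccnb1), and their TAC effects from -0.44 (Smc2) to 0.87 (Ect2) in wild type and from -0.75 (Top2a) to 0.62 (Nuf2) in combined hearts.

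Other genes of the pathway were listed apart from the 38. In unstressed combined hearts 9 of 33 other kinetochore and centromere genes were called higher and 1 lower, 8 of 28 other spindle, condensin and cytokinesis genes higher and 1 lower, and 8 of 32 other mitotic regulators higher and 2 lower. Of all genes tested, 15% were called higher there and 13.6% lower. Pmf1, of the MIS12 kinetochore complex, was at 19.9 ± 1.52 CPM against 13.1 ± 0.57 in wild type (SD, n = 4 each, 0.60 ± 0.10, adjusted p = 5e-05). Stmn1, which destabilises microtubules, was at 19.8 ± 4.70 against 9.17 ± 1.40 CPM (1.1 ± 0.18, adjusted p = 3.9e-05). Fzr1, the second activator of the anaphase-promoting complex, was at 59.1 ± 4.18 against 41.5 ± 5.67 CPM (0.51 ± 0.09, adjusted p = 0.00012). DNA replication genes were called higher in 23 of 44, with 1 lower, among them E2f1 at 12.1 ± 3.73 against 3.85 ± 0.38 CPM (1.65 ± 0.21, adjusted p = 3e-06) and Mcm5 at 22.0 ± 6.86 against 8.43 ± 0.43 CPM (1.38 ± 0.19, adjusted p = 9.1e-06). After TAC in combined hearts 24 of the 44 replication genes were called lower and 1 higher, where 21.3% of all genes were called lower and 21.6% higher. Of the other mitotic lists, in the order above, 11 of 33, 9 of 28 and 8 of 32 were called lower, with 1, 0 and 2 higher. In wild type 1 of the 44 replication genes was called after TAC, and it was lower, where 17.4% of all genes were called lower and 17.5% higher.

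**Figure D5:**
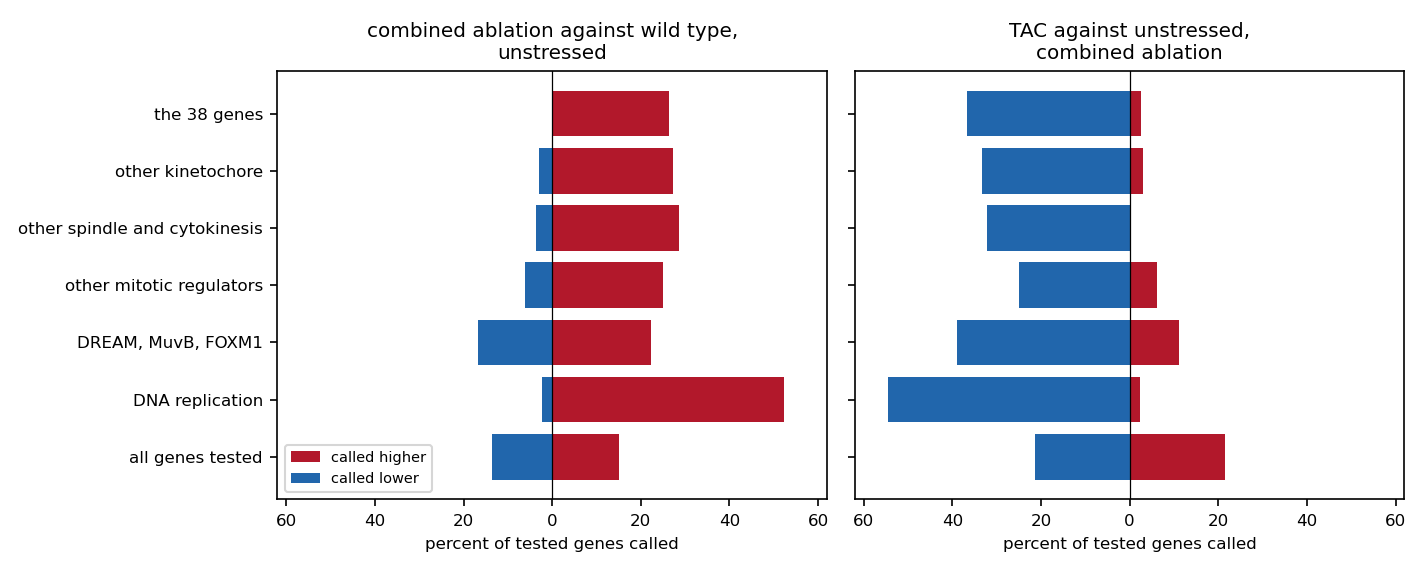
Percent of the tested genes of each list called higher (red, to the right) and lower (blue, to the left) in unstressed combined hearts against wild type (left panel) and after TAC in combined hearts (right panel), with all genes tested as the last bar. In the left panel the 38 genes reach 26.3% higher and replication genes 52.3%, and in the right panel 36.8% and 54.5% lower, and both panels use the unstressed combined libraries.

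Among regulators of these genes, Foxm1 was at 3.51 ± 0.33 CPM in unstressed wild-type hearts and 4.38 ± 1.11 in combined hearts (SD, n = 4 each), and Mybl2, the MYB subunit of the activating complex, at 1.14 ± 0.29 and 1.35 ± 0.31, and neither was called. Nfyc, a subunit of the CCAAT-binding NF-Y, fell after TAC in all 4 genotypes (-0.34, -0.27, -0.31 and -0.58 from wild type to combined, adjusted p = 0.00019, 0.0081, 0.0016 and 3.3e-08). Cdkn1a, the inhibitor p21 of cyclin-dependent kinases, rose after TAC in wild-type (1.66 ± 0.33, adjusted p = 0.00058), PKCε (1.31 ± 0.36, adjusted p = 0.01) and combined hearts (1.53 ± 0.32, adjusted p = 0.00065). It was at 30.3, 33.5 and 32.1 CPM in unstressed PKCδ hearts and 38.6, 39.1 and 43.9 CPM after TAC, without overlap, and was not called there (0.34 ± 0.37, adjusted p = 0.54). The direct test against wild type, the interaction of PKCδ with TAC, did not call Cdkn1a either (-1.32 ± 0.50, adjusted p = 0.23). Wee1, the kinase that holds Cdk1 inactive and a known output of the circadian clock, was at 16.9, 8.77, 13.8 and 16.9 CPM in unstressed wild-type hearts and 3.65, 3.01 and 4.68 CPM in unstressed PKCδ hearts (-1.89 ± 0.33, adjusted p = 0.0012). It was lower also in unstressed PKCε (-1.31 ± 0.31, adjusted p = 0.021) and combined hearts (-1.33 ± 0.28, adjusted p = 0.001), and fell after TAC in wild type (-1.19 ± 0.28, adjusted p = 0.0018). Its TAC values in PKCδ, PKCε and combined hearts were 0.84, 0.25 and 0.59, none of them called. The TAC effect differed from that of wild type in PKCδ (interaction 2.03 ± 0.45, adjusted p = 0.021) and combined hearts (1.78 ± 0.40, adjusted p = 0.0023). In PKCε hearts the interaction was not called (1.44 ± 0.42, adjusted p = 0.27). All of these calls of Wee1 use the same unstressed wild-type libraries, so they are not independent. No source used here gives the time of day of collection.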

How the data were processed

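Per the labels' protocols, polyadenylated RNA of ventricular apexes was sequenced single-end without strand. The authors deposited raw read counts for each gene symbol, and the submitters' processing notes name mm10, TopHat2 2.0.10, Bowtie2, HTSeq, DESeq and edgeR, with no role stated. The library files and the table of the whole series held identical counts for 23391 shared names, and 5 totals of reads outside genes in each library file were left out of library sizes. Reads on more than 1 gene were 0.78% to 0.94% of a library, so overlapping exons, taken from GENCODE vM21, are undercounted or mixed.

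Comparisons used edgeR 4.0.16 (R 4.3.3, limma 3.58.1), with TMM scaling, robust quasi-likelihood fits, 8 group means over 29 libraries (21 residual degrees of freedom), genes with a mean of at least 0.3 CPM (14054), and Benjamini-Hochberg adjustment at 0.05 within each of 13 comparisons. The fit had no sex term, because the sex labels go against Xist and Y-linked transcripts in several libraries. Libraries are replicates by label only, so p-values measure the spread between libraries. Members and lists were chosen with earlier results of these data known. Named genes were up to 8 called members per comparison with the smallest adjusted p, wild-type members of highest level, up to 4 called genes of each other list, and Foxm1, Mybl2, Cdkn1a and Wee1. Tnnc2, Myh2, Kif23, Birc5 and Ndc80 were named after their values were seen, as were members named for alternatives or extremes. The same replicate numbers did not deviate together (correlations of -0.202 to 0.24), so they did not pair libraries. Figures were drawn with matplotlib 3.10.9.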

Additional observations from a re-analysis of the deposited data

Results flagged for a closer look

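In 7 of 190 gene-by-group sets of 4 libraries (3.68%) a single library stood far from the other 3 for its group's range, where chance gives about 1 in 20. Unstressed combined replicate 1 was high for Mki67 (15.6 CPM, others 12.4 to 12.9) and Cenpe (3.74, others 1.90 to 2.17). Combined TAC replicate 1 was low for Bub1b (0.82 CPM, others 1.55 to 1.64) and Ncapd2 (24.3, others 39.8 to 40.2). Wild-type TAC replicate 3 was high for Ccnb1 (1.94 CPM, others 0.56 to 0.77), PKCε TAC replicate 4 for Ccna2 (2.63, others 1.03 to 1.27) and unstressed wild-type replicate 4 for Cdca8 (1.47, others 1.0 to 1.05). The TAC effect differed from that of wild type, by the interaction test, for Cenpf in PKCδ hearts (-1.15) and in combined hearts for Aurkb (-1.78), Bub1b (-1.67), Cdca8 (-1.74), Cenpe (-1.49), Ncapd2 (-0.74), Spag5 (-1.48) and Ube2c (-2.35), all log2 values.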

How the results depend on the processing

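Counts of called genes were recomputed with RLE scaling, no filter, a filter by group, the sex label as a term, a replicate block, DESeq2 1.42.0, a model of only the groups compared, without wild-type TAC 2 and combined TAC 2, and, added after seeing the data, with unstressed combined 2 and 4 summed and with Y-linked transcripts as a term. Of 130 such counts 122 stayed within 1.5 times the count of the fit reported. Among the 122 are counts of 0 that stayed at 0, which say little about stability. The comparisons with 0 in the fit reported were unstressed PKCε hearts and each genotype after TAC against wild type, and the PKCε interaction. No called gene changed direction. The 8 others were the TAC effect in combined hearts (15) at 8 with the sex label and 9 with only the groups compared, that in wild type (3) at 5 with only the groups compared and 5 without both libraries, PKCε against wild type after TAC (0) at 1 with DESeq2, combined against wild type after TAC (0) at 1 without both libraries (Birc5) and 1 with the Y-linked term (Aurkb), and the combined interaction (7) at 11 with replicates 2 and 4 summed. The causes were not tested. With the replicate block the counts in wild-type, PKCδ, PKCε and combined TAC effects were 3, 3, 7 and 14, and 9 in unstressed combined hearts.

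Leaving out 1 library at a time gave 3 to 5 called genes for TAC in wild type (5 without wild-type TAC 2). The TAC effect gave 2 to 3 in PKCδ hearts, 3 to 7 in PKCε hearts and 9 to 17 in combined ones. It gave 1 to 1 for unstressed PKCδ, 0 to 0 for unstressed PKCε and 4 to 11 for unstressed combined hearts against wild type, and 0 to 0, 0 to 0 and 0 to 1 for the same after TAC. The interactions gave 0 to 1 for PKCδ, 0 to 0 for PKCε and 5 to 10 for combined hearts. The lowest counts in combined hearts were those without unstressed combined 1. Depth limits genes near 1 CPM, which rest on 10 to 18.1 reads per library.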
